A study of Mus musculus with 6 samples.

Results

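The genes described here encode the vacuolar ATPase, the cathepsin proteases and the 2 main lysosome-associated membrane glycoproteins, in mouse hippocampus. They were taken by name: protein-coding rows of the deposited count table whose symbol begins with Atp6v, is Cts followed by a single letter, or is Lamp1 or Lamp2. The table held 37 such genes among its 32067 rows, 22 of them Atp6v genes, 13 cathepsins and 2 Lamp genes. Hippocampal poly(A) RNA was sequenced from 6 wild-type C57BL/6J female mice aged 17 weeks, all of them ovariectomised at 8 weeks of age. The OVX+RJ group (n = 3) then ate a diet containing 1% royal jelly, a secretion of worker honeybees, and the OVX group (n = 3) ate the control diet. Each library is labelled as a biological replicate, and a sham-operated group that the protocol text mentions is not analysed here. Because both groups lack ovaries, no value below bears on ovariectomy itself.

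The vacuolar ATPase is a rotary pump that uses ATP to move protons into lysosomes, endosomes and synaptic vesicles. Its V1 sector sits in the cytosol and hydrolyses ATP, while its V0 sector lies in the membrane and carries the protons. Cathepsins are proteases, and many of them mature and work in the acid lumen of the lysosome. In brain they clear proteins delivered by endocytosis and autophagy. Lamp1 and Lamp2 coat the inner face of the lysosomal membrane, and neurons also rely on the pump to fill synaptic vesicles with transmitter.

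Total counts (in units of 1e+06) were 36.1 to 39.4 in OVX+RJ and 34.7 to 58.2 in OVX. The library OVX+RJ 1 stood apart, with a mean Pearson correlation of log2 values across genes of 0.983 to the remaining libraries, where the rest had 0.986 to 0.987. Values per library are CPM, the counts of a gene per 1e+06 counts over all rows. The fold changes are those of edgeR's quasi-likelihood test with TMM scaling, adjusted by Benjamini-Hochberg over 18629 genes, and each 95% interval was derived from that test. Of the 37 genes, 32 passed the filter on low counts and were tested.

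By its design the study sets mice fed royal jelly against mice fed the control diet, all without ovaries, and asks where their hippocampal transcripts differ. None of the 32 tested vacuolar ATPase, cathepsin and Lamp genes passed an adjusted p of 0.05, where 0 of all tested genes passed, so the background share was 0.0%. At an unadjusted p under 0.05 there were also 0 of 32, against a background of 4.05% of all tested genes, and DESeq2, which called 12 of all genes at an adjusted p of 0.05, called 0 of the 32. Without OVX+RJ 1 edgeR also called 0 of the 32. Their log2 fold changes were positive at 14 and negative at 18 genes, with a median of -0.0085, beside a median of -0.0015 over all tested genes.

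The size of any difference was bounded for most of these genes. At 28 of the 32 the 95% interval lay wholly within 1.5-fold in either direction, and at 25 within 1.25-fold, against 62.8% and 38.4% of all tested genes. The 28 were the members with a mean of at least 5 CPM, a limit chosen after the values were seen, and among all 11800 genes at that level 93.98% and 60.6% met the same bounds. Within those 28 genes the log2 fold changes ran from -0.14 to 0.15, and the outermost interval bounds were -0.35 (Ctsz) and 0.47 (Ctsh). Over all 32 members the coefficient of variation within groups, pooled over both groups, had a median of 5.54%, beside 11.4% over all tested genes. At 5 CPM or more these medians were 5.17% and 7.57%. The 32 members were also more abundant than most genes, at a median of 74.0 CPM beside 12.96 CPM over all tested genes.

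**Figure D1:**
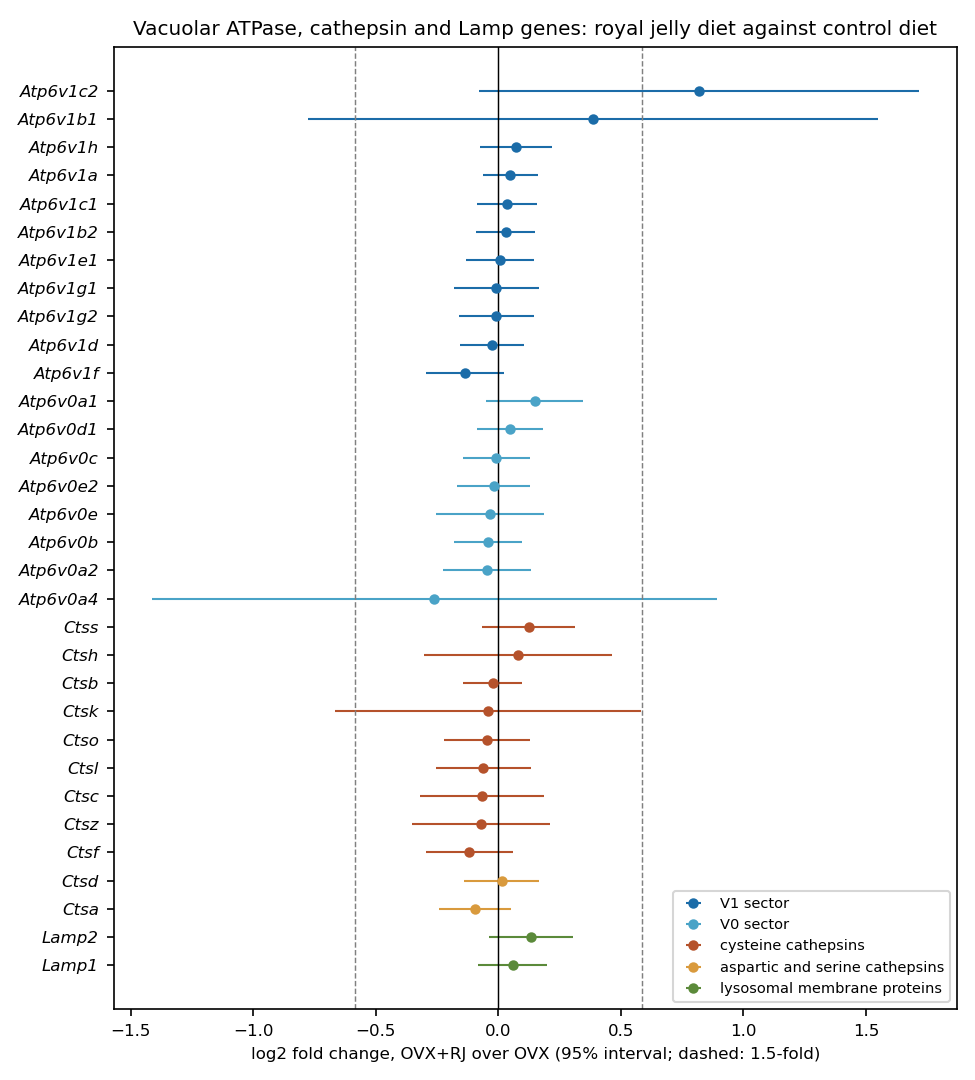
Log2 fold change of OVX+RJ over OVX for the 32 tested genes (points) with 95% intervals (lines), coloured by role, with dashed lines at 1.5-fold. Intervals of 28 genes stay inside the dashed lines, and those that leave them belong to Atp6v1c2, Atp6v1b1, Atp6v0a4 and Ctsk, each under 5 CPM.

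In the V1 sector, 11 genes were tested, 7 with positive and 4 with negative log2 fold changes, with a median of 0.030, which ran from 0.00021 without OVX+RJ 1 to 0.061 without OVX 2. Atp6v1a, which encodes the catalytic A subunit, was the most abundant V1 gene in CPM, at 816, 824 and 772 CPM in OVX+RJ 1, 2 and 3, against 774, 780.0 and 796 CPM in OVX 1, 2 and 3. The groups overlapped, and the log2 fold change was 0.049 (SE 0.052, 95% interval -0.065 to 0.16), or 0.027 without OVX+RJ 1 and 0.083 without OVX+RJ 3. Atp6v1f encodes subunit F, part of the central stalk that turns within the pump. It was at 48.4, 53.0 and 52.6 CPM in OVX+RJ, against 53.3, 58.0 and 59.0 CPM in OVX. All 3 OVX+RJ libraries were below every OVX library, with a log2 fold change of -0.14 (SE 0.072), an unadjusted p of 0.0859 and an adjusted p of 0.986 in edgeR. Without OVX 1 the log2 fold change was -0.18, with an unadjusted p of 0.0443 and an adjusted p of 0.999.

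Atp6v1h encodes subunit H, which in yeast inhibits ATP hydrolysis by the freed V1 sector. It was at 180.0, 166 and 165 CPM in OVX+RJ, against 156, 169 and 164 CPM in OVX. OVX+RJ 1 was the highest library and the other values overlapped, with a log2 fold change of 0.071 (SE 0.067, adjusted p 0.986). Without OVX+RJ 1 it was 0.016 and without OVX 1 it was 0.036. Atp6v1d, another stalk subunit, had a log2 fold change of -0.028 (SE 0.060). All other V1 genes above 5 CPM, Atp6v1b2, Atp6v1c1, Atp6v1e1, Atp6v1g1 and Atp6v1g2, had log2 fold changes between -0.0090 and 0.034.

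In the V0 sector, 8 genes were tested, 2 with positive and 6 with negative log2 fold changes, with a median of -0.027. Atp6v0c, which encodes the proteolipid of the proton-carrying ring, was the most abundant of these in CPM, at 479, 443 and 477 CPM in OVX+RJ, against 478, 496 and 445 CPM in OVX. The groups overlapped, and the log2 fold change was -0.0080 (SE 0.061, 95% interval -0.14 to 0.13). The pseudogene row Atp6v0c-ps2, which is not a member, held between 6.52% and 7.02% as many CPM as Atp6v0c in every library, so reads of the gene and its copy may be shared. Atp6v0a1 encodes the a1 subunit, the form typical of neurons. It was at 528, 428 and 432 CPM in OVX+RJ, against 451, 423 and 391 CPM in OVX. OVX+RJ 1 alone lay above every OVX library, and the log2 fold change was 0.15 (SE 0.090, adjusted p 0.986). Without OVX+RJ 1 the log2 fold change was 0.029. Atp6v0a2, the a2 form found in Golgi and endosomes, was at 55.1, 69.4 and 61.3 CPM in OVX+RJ, against 63.1, 64.4 and 65.5 CPM in OVX. In OVX+RJ 1, where Atp6v0a1 was highest, Atp6v0a2 was lowest. Atp6v0d1, which links the ring to the stalk, was at 166, 166 and 169 CPM in OVX+RJ, against 162, 173 and 154 CPM in OVX, with a log2 fold change of 0.047 (SE 0.062). OVX 2 was the highest library and OVX 3 the lowest, and leaving them out in turn gave 0.095 and 0.014. Atp6v0b, another proteolipid, had a log2 fold change of -0.043 (SE 0.063).

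Several subunits have paralogs used in different tissues, and the same paralog led each set in all 6 libraries. Levels of different genes were compared as CPM per kilobase of transcript, with the length of a single GENCODE M21 transcript per gene. For subunit a, Atp6v0a1 made up 88.7 ± 2.04% of the set in OVX+RJ and 87.4 ± 0.860% in OVX (SD, n = 3 each). Atp6v0a2 made up 9.02 ± 1.77% in OVX+RJ and 10.04 ± 0.809% in OVX. Tcirg1, which encodes the a3 form used by osteoclasts and falls outside the naming rule, made up 2.20 ± 0.376% in OVX+RJ and 2.47 ± 0.190% in OVX. Atp6v0a4, a form of kidney and inner ear, made up at most 0.0889% in any library. The share of Atp6v0a1 was highest in OVX+RJ 1, at 91.0%, and between 86.7% and 88.4% in the other libraries.

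Subunits G and e were also shared between paralogs. Atp6v1g2, the neuronal form of G, made up 82.4 ± 1.09% in OVX+RJ and 82.4 ± 1.26% in OVX, nearly all of the rest being Atp6v1g1, the ubiquitous form. In CPM, Atp6v1g2 was at 379, 367 and 392 in OVX+RJ, against 366, 426 and 362 in OVX. Atp6v1g1 was at 61.4, 61.9 and 57.2 CPM in OVX+RJ, against 55.6, 63.9 and 63.4 CPM in OVX. Of subunit e, Atp6v0e2 made up 95.7 ± 0.483% in OVX+RJ and 95.7 ± 0.513% in OVX. Atp6v0e2 was at 293, 259.7 and 272 CPM in OVX+RJ, against 273, 295 and 275 CPM in OVX, and Atp6v0e at 18.3, 20.5 and 19.1 CPM in OVX+RJ, against 21.3, 18.1 and 20.4 CPM in OVX. The ranges of the groups overlapped for each of these 4 genes. Without the division by length the leading paralog of every set was unchanged.

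**Figure D2:**
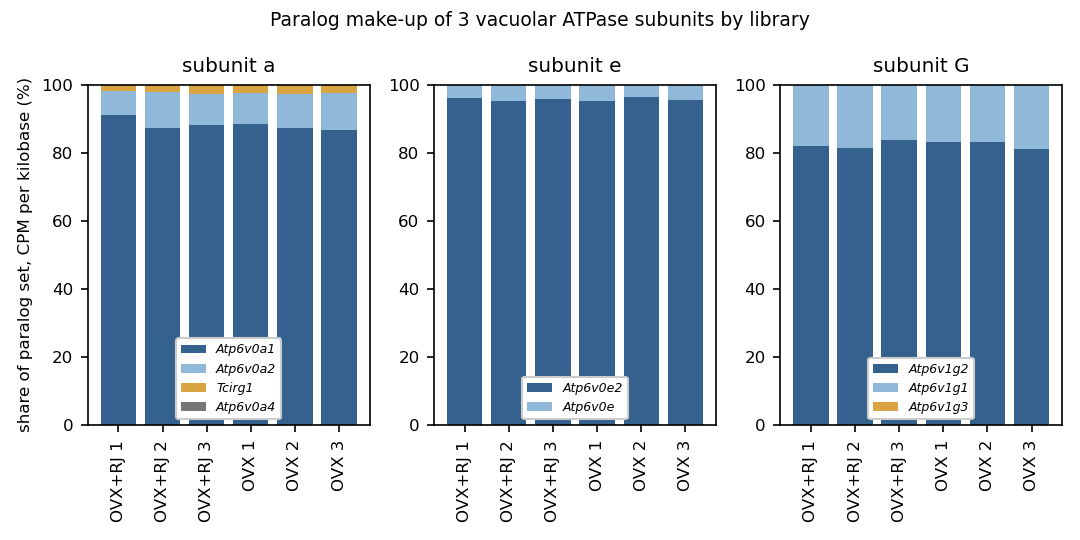
Share of each paralog in its subunit set, in percent of CPM per kilobase, for subunits a, e and G in the 3 OVX+RJ and 3 OVX libraries (1 bar per library). Atp6v0a1, Atp6v0e2 and Atp6v1g2 lead in every bar, with Atp6v0a1 at 86.7% to 91.0%, Atp6v0e2 at 95.2% to 96.2% and Atp6v1g2 at 80.9% to 83.6%.

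Subunits B, C and E came almost wholly from 1 gene each. Atp6v1b2, the brain form of the nucleotide-binding B subunit, made up at least 99.9% of its set in every library, Atp6v1c1 at least 99.45% and Atp6v1e1 at least 99.96%. Atp6v1b2 was at 679, 649 and 659.7 CPM in OVX+RJ, against 651, 683 and 630.3 CPM in OVX. Atp6v1c1 was at 268, 273 and 259.6 CPM in OVX+RJ, against 257, 272 and 259 CPM in OVX. Atp6v1e1 was at 309.6, 305 and 280.4 CPM in OVX+RJ, against 287, 306 and 305 CPM in OVX. The groups overlapped at all 3 genes. The minor forms Atp6v1b1 and Atp6v1c2, known from kidney and other epithelia, and Atp6v1e2 were all under 2 CPM in every library. Atp6v1c2 was at 0.883, 1.14 and 0.499 CPM in OVX+RJ, against 0.576, 0.481 and 0.393 CPM in OVX. OVX+RJ 1 and 2 were above every OVX library and OVX+RJ 3 lay among them. Its log2 fold change, 0.82, was the highest of the 32 genes, but its SE was 0.41, its interval -0.080 to 1.71, its unadjusted p 0.0704 and its adjusted p 0.986 in edgeR. Without OVX+RJ 3 the log2 fold change was 1.08, at an unadjusted p of 0.0241 and an adjusted p of 0.954 in edgeR. Leaving out OVX+RJ 2 instead gave 0.54.

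Atp6v1b1 was at 0.468, 0.330 and 0.166 CPM in OVX+RJ, against 0.230, 0.309 and 0.196 CPM in OVX. Atp6v0a4 was at 0.182, 0.152 and 0.360 CPM in OVX+RJ, against 0.317, 0.275 and 0.245 CPM in OVX. Their intervals, -0.78 to 1.55 and -1.41 to 0.89 on the log2 scale, were too wide to bound a change of 1.5-fold. A further 3 Atp6v genes and 2 cathepsins fell under the filter, and their raw counts are given in the order OVX+RJ 1, 2, 3, then OVX 1, 2, 3. Atp6v1e2, known from testis, had 0, 0 and 0, then 4, 0 and 0 counts, and Atp6v1g3, known from kidney, had 0, 0 and 0, then 2, 0 and 0. Atp6v1fnb, a neighbour of Atp6v1f that carries the name without being a known subunit, had 0, 4 and 0, then 0, 2 and 0.

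**Figure D3:**
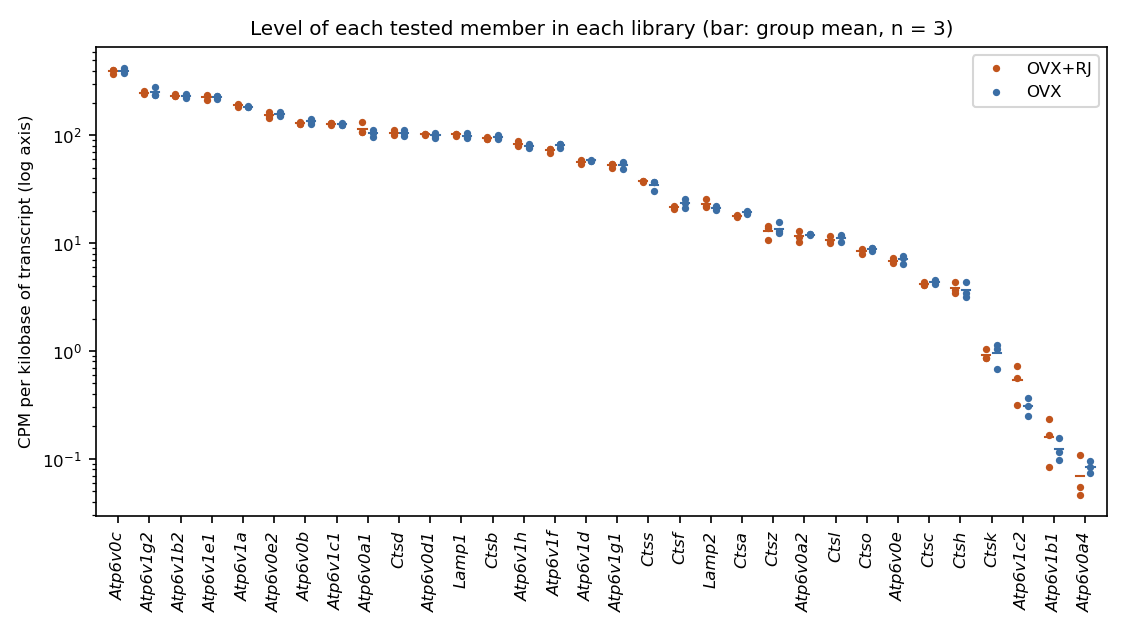
Level of each tested gene in each library as CPM per kilobase of transcript, on a log axis, with OVX+RJ left of OVX and a bar at each group mean (n = 3). Atp6v0c leads at 375 to 419 CPM per kilobase, the abundant pump subunits and Ctsd, Ctsb and Lamp1 follow, and Atp6v0a4, Atp6v1b1 and Atp6v1c2 are lowest.

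Among the cathepsins 11 were tested, 3 with positive and 8 with negative log2 fold changes, with a median of -0.048. Ctsb, a cysteine cathepsin and the most abundant of its class in CPM, was at 442, 435 and 457 CPM in OVX+RJ, against 451, 477 and 438 CPM in OVX. The log2 fold change was -0.024 (SE 0.055, 95% interval -0.14 to 0.097). Ctsd, the main aspartic protease of the lysosome, was at 237, 214 and 227 CPM in OVX+RJ, against 212, 241 and 224 CPM in OVX. Its log2 fold change was 0.013 (SE 0.070, 95% interval -0.14 to 0.17). The groups overlapped at both genes. Per length, Ctsd and Ctsb were close to each other, at 106 and 94.9 CPM per kilobase over the 6 libraries, and Ctss followed at 36.3. In GENCODE M21, exons of other genes cover 31.5% of the Ctsd transcript, 28.2% of Ctsl, 21.7% of Ctsa and 16.3% of Ctsb, and part of these counts may belong to neighbours. The neighbour lies on the same strand at Ctsd, on the opposite strand at Ctsa and Ctsb, and on both at Ctsl, and the kit was directional but the strand setting of the counting was not given in the sources used here.

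Ctss, the cysteine cathepsin typical of microglia, was at 51.3, 51.4 and 50.5 CPM in OVX+RJ, against 41.4, 50.4 and 49.7 CPM in OVX. Every OVX+RJ library was above every OVX library, with OVX+RJ 3 and OVX 2 nearly level at 50.5 and 50.4 CPM, and OVX 1 was lower than the rest. The log2 fold change was 0.12 (SE 0.086, unadjusted p 0.181, adjusted p 0.986), and without OVX 1 it was 0.034. Ctsa, a serine carboxypeptidase that also protects lysosomal glycosidases, was at 65.3, 64.2 and 66.7 CPM in OVX+RJ, against 67.7, 73.3 and 70.2 CPM in OVX. Its groups did not overlap, with a log2 fold change of -0.096 (SE 0.067, unadjusted p 0.176, adjusted p 0.986), or -0.064 without OVX 2. Groups that did not overlap were found at 1 of the 32 genes on the higher side and at 2 on the lower side, against 4.53% and 5.95% of all tested genes, so these shares were close to the background. Ctsf, a cysteine cathepsin whose human gene is mutated in a form of neuronal ceroid lipofuscinosis, was at 43.8, 41.5 and 42.5 CPM in OVX+RJ, against 47.0, 50.4 and 42.4 CPM in OVX, and OVX 3 lay among the OVX+RJ libraries. Its log2 fold change was -0.12 (SE 0.081, adjusted p 0.986), and it was -0.054 when OVX 2 was left out.

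The remaining tested cathepsins had log2 fold changes smaller in size than their SE. Ctsl, Ctso, Ctsc, Ctsz, Ctsh and Ctsk had log2 fold changes between -0.070 and 0.080 with SE between 0.080 and 0.29. Ctsk, known from osteoclasts, was the least abundant tested cathepsin, at 1.39 ± 0.165 CPM in OVX+RJ, beside 1.44 ± 0.365 CPM in OVX (SD, n = 3 each). Ctsw, known from cytotoxic lymphocytes, had 4, 6 and 3 counts in OVX+RJ 1, 2 and 3 and 12, 7 and 11 counts in OVX 1, 2 and 3, under the filter. Scaled to depth the groups overlapped, at 0.0831 to 0.152 CPM in OVX+RJ, beside 0.120 to 0.346 CPM in OVX. Markers of neutrophils and lymphocytes summed to 0.234 to 0.356 CPM in OVX+RJ, beside 0.447 to 0.589 CPM in OVX, from 7 of 10 listed genes in the table, of which 0 were tested, and their part in the Ctsw counts was not tested. Ctsg, known from neutrophils, had 2 counts in OVX 2 and 0 in the other 5 libraries.

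Lamp1 was at 232, 222 and 229 CPM in OVX+RJ, against 215, 237 and 209 CPM in OVX. OVX 2 was the highest library, and the log2 fold change was 0.059 (SE 0.064, 95% interval -0.081 to 0.20). It was 0.12 without OVX 2, and 0.036, 0.029 and 0.036 without OVX 1, OVX 3 and OVX+RJ 1 in turn. Lamp2, of which 1 isoform serves chaperone-mediated autophagy, was at 77.5, 92.97 and 80.1 CPM in OVX+RJ, against 72.8, 79.2 and 78.0 CPM in OVX. OVX+RJ 2 and 3 lay above every OVX library and OVX+RJ 1 lay among them. The log2 fold change was 0.13 (SE 0.079, 95% interval -0.040 to 0.31), with an unadjusted p of 0.120 and an adjusted p of 0.986. Leaving out OVX+RJ 2 gave 0.056.

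Some of these genes had a promoter feature in common that their names did not select. Many lysosomal promoters carry an E-box within a longer element that the transcription factors Tfeb, Tfe3 and Mitf bind. The motif was searched for because it is known from lysosomal promoters, so its share here is not independent of that choice. RefSeq promoter sequences, from 250 bases before to 50 bases after the gene start on GRCm38.p6, were matched by symbol for 29 of the 37 genes, with 33 promoters in all. Of these 33 promoters, 29 matched the start of a GENCODE M21 transcript. The palindromic motif CACGTG was found in 9 of the 33 promoters (27.3%), each of a different gene, against 7.15% of all 32851 promoters of the same length. The longer TCACGTG, searched on both strands and always overlapping CACGTG, was found in 7 of 33 (21.2%), against 3.77% of all promoters. The member promoters were richer in G and C, at a median of 57.3% against 52.7% of all promoters, and held more CG dinucleotides, at a median of 12 against 7, and the part of this composition in the motif share was not tested.

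The 4 promoters below show the feature in a membrane glycoprotein, a protease, a V0 and a V1 gene, with TCACGTG, or its reverse complement CACGTGA, in capitals. Positions are counted from the gene start, with negative values before it. In Lamp1 (GRCm38.p6 chr8:13158911-13159210, plus strand) the capitals begin at -62, -45, -28 and -16. In Ctsd (chr7:142387778-142388077, minus strand) they begin at -245 and -99, in Atp6v0b (chr4:117887280-117887579, minus strand) at -37 and -19, and in Atp6v1a (chr16:44139210-44139509, minus strand) at -132.
Lamp1: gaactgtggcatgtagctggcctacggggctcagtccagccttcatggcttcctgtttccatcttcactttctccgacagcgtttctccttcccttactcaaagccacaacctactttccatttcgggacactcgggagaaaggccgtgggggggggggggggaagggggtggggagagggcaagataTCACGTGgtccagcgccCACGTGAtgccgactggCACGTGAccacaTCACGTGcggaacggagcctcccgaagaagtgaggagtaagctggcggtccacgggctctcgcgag
Ctsd: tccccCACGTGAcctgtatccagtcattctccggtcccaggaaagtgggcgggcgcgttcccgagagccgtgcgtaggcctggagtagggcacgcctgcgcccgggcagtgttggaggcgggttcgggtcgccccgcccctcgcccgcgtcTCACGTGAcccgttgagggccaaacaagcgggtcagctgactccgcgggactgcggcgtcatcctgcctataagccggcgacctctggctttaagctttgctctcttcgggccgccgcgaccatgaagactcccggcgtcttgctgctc
Atp6v0b: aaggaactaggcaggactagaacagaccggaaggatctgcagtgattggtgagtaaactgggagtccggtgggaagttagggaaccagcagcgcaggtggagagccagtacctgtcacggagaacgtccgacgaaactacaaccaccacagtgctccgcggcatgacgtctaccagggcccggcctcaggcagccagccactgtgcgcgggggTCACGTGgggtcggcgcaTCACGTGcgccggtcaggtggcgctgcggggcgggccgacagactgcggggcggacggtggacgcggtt
Atp6v1a: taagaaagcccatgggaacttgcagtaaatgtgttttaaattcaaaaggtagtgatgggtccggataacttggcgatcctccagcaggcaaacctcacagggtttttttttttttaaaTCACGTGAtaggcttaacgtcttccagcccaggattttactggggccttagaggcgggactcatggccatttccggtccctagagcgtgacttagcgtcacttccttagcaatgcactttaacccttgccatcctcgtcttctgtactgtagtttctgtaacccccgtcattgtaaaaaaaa
Ctsa, Ctsf, Ctsl, Atp6v0d1 and Atp6v0e also held CACGTG, Ctsf and Ctsl without the preceding T. The 9 genes with the motif, all tested, had log2 fold changes from -0.12 to 0.059 with a median of -0.034, 4 positive and 5 negative. The 16 tested members whose promoters lacked it had a median of -0.014, 6 positive and 10 negative. A match of letters is a description of the sequence and no evidence of binding.

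Summed over all 37 genes the level was 5906, 5692 and 5678 CPM in OVX+RJ, beside 5627, 5943 and 5590.0 CPM in OVX. The sum was highest in OVX 2, followed by OVX+RJ 1, and the groups overlapped. The Atp6v genes summed to 4485 ± 122 CPM in OVX+RJ, beside 4439 ± 132 CPM in OVX, and the cathepsins to 962 ± 18.2 CPM in OVX+RJ, beside 984 ± 47.7 CPM in OVX (SD, n = 3 each). OVX 2, the deepest library, was the highest of the 6 at 17 of the 32 tested genes, where it was highest at 15.9% of all tested genes. Without OVX 2 the median log2 fold change of all 32 was 0.035, that of the V0 sector 0.010 and that of the cathepsins 0.014, each with the opposite sign to the value over all 6 libraries. Without OVX+RJ 2 or without OVX+RJ 3 the median of all 32 was also above 0, at 0.0070 and 0.012.

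**Figure D4:**
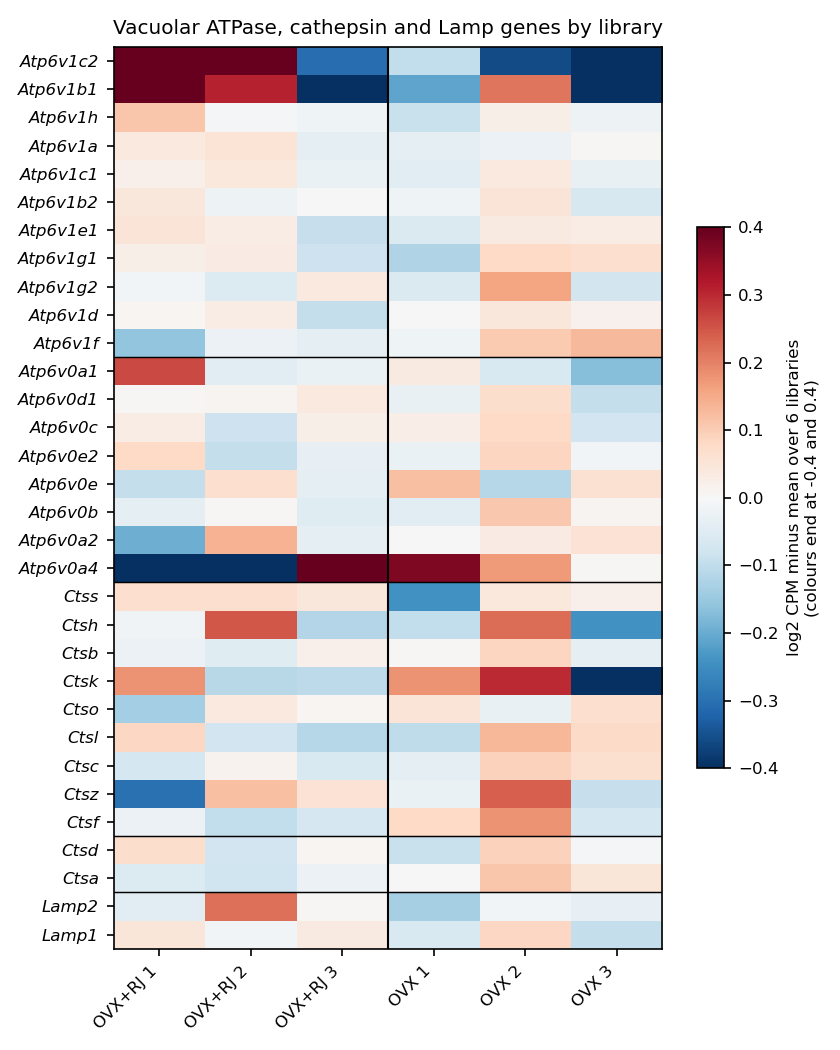
Log2 CPM of each tested gene in each library minus its mean over the 6 libraries, in colour, with OVX+RJ left of the vertical line, OVX right of it, and genes ordered by role. OVX 2 is the highest column at 17 of 32 genes, and OVX+RJ 1 is high at Atp6v0a1 and low at Atp6v0a2 and Ctsz.

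In the rest of the lysosomal pathway, none of the listed genes passed an adjusted p of 0.05 in edgeR. Of 15 genes for accessory and assembly factors of the pump, all tested, 9 were positive and 6 negative, with a median of 0.048. At an unadjusted p under 0.05 in edgeR, where 4.05% of all tested genes lay, 0 were higher and 1 lower. That gene, Rnasek, whose small membrane product associates with the pump, was at 17.6, 19.8 and 19.9 CPM in OVX+RJ, against 27.2, 23.2 and 20.1 CPM in OVX. All 3 OVX+RJ libraries were below every OVX library, as at 5.95% of all tested genes, with OVX+RJ 3 and OVX 3 nearly level. The log2 fold change was -0.29 (SE 0.12, unadjusted p 0.0304, adjusted p 0.986 in edgeR). Atp6ap2, the accessory subunit also known as the prorenin receptor, had a log2 fold change of 0.12 (SE 0.055), and Rogdi, part of a complex that reassembles the pump, of -0.14 (SE 0.066). The groups did not overlap at either gene. Of the 15 genes, 1 lay wholly higher and 2 wholly lower in OVX+RJ, Rnasek included, against 4.53% and 5.95% of all tested genes.

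Of 37 other lysosomal hydrolases 35 were tested, 16 positive and 19 negative, with a median of -0.012. Dnase2a, the acid nuclease of lysosomes, was the 1 gene at an unadjusted p under 0.05 in edgeR, where 4.05% of all tested genes lay. It was at 2.39, 4.01 and 2.27 CPM in OVX+RJ, against 5.59, 3.89 and 4.86 CPM in OVX. OVX+RJ 2 lay among the OVX libraries, and the log2 fold change was -0.71 (SE 0.25, unadjusted p 0.0149, adjusted p 0.986). The 24 other lysosomal membrane and sorting genes had a median of 0.018, with 14 positive and 10 negative and 0 under that p. Scarb2, the receptor that carries glucocerebrosidase to lysosomes, had a log2 fold change of 0.14 (SE 0.071).

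Genes that regulate lysosomes or their proteases were tested beside them. Of the TFE transcription factors 3 of 4 were tested. Tfeb was at 5.00 ± 1.22 CPM in OVX+RJ, beside 4.29 ± 0.653 CPM in OVX (SD, n = 3 each). Tfe3 was at 28.1 ± 1.51 CPM in OVX+RJ, beside 27.5 ± 2.05 CPM in OVX, and Mitf at 8.27 ± 0.390 CPM in OVX+RJ, beside 8.97 ± 0.378 CPM in OVX. At Mitf all 3 OVX+RJ libraries were below every OVX library, as at 5.95% of all tested genes. The edgeR adjusted p of Tfeb and Mitf was 0.986 and that of Tfe3 0.987. Cst3, which encodes the secreted cathepsin inhibitor cystatin C, was at 718 ± 11.2 CPM in OVX+RJ, beside 734 ± 52.7 CPM in OVX. The cystatins had a median of -0.022 over 3 tested genes. The 13 genes of Ragulator and the Rag GTPases, which tether mTORC1 to the lysosome, and of their partners Slc38a9, folliculin and the folliculin-interacting proteins, had a median of 0.013. At an unadjusted p under 0.05 in edgeR, where 4.05% of all tested genes lay, 1 was higher and 0 lower. That gene, Fnip1, a partner of folliculin, was at 83.4, 83.9 and 84.7 CPM in OVX+RJ, against 69.7, 66.8 and 78.4 CPM in OVX. All 3 OVX+RJ libraries were above every OVX library, as at 4.53% of all tested genes. The log2 fold change was 0.24 (SE 0.074, unadjusted p 0.00760, adjusted p 0.986 in edgeR).

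In bulk tissue, fewer cells of a type and less RNA per cell cannot be told apart. Neuron markers summed to 12480 to 13050 CPM in OVX+RJ, beside 12540 to 12920 CPM in OVX, with 12 of 12 genes tested, 10 positive and 2 negative. Microglia markers, whose cells carry much of the brain's Ctss, summed to 374 to 407 CPM in OVX+RJ, beside 406 to 426 CPM in OVX. Of these, 18 of 18 were tested, 5 positive, 13 negative and 0 at an unadjusted p under 0.05. Their median log2 fold change was -0.070, beside 0.12 at Ctss. Groups did not overlap at 0 of the 18 on the higher side and 2 on the lower side, against 4.53% and 5.95% of all tested genes. Astrocyte markers summed to 5434 to 5714 CPM in OVX+RJ, beside 5382 to 5826 CPM in OVX, with 3 of 10 positive and 7 negative. Oligodendrocyte markers summed to 3894 to 5234 CPM in OVX+RJ, beside 3211 to 5329 CPM in OVX, with 10 of 10 positive at a median log2 fold change of 0.091 and 0 at an unadjusted p under 0.05. Choroid plexus markers summed to 32.9 to 63.4 CPM in OVX+RJ, beside 33.7 to 45.5 CPM in OVX, with 8 of 12 positive and 4 negative, 3 of them higher at an unadjusted p under 0.05. Endothelial markers summed to 165 to 199.8 CPM in OVX+RJ, beside 197 to 201 CPM in OVX, with 3 of 10 positive and 7 negative at a median of -0.15, 2 of them lower at that p. Border macrophage markers summed to 3.98 to 7.49 CPM in OVX+RJ, beside 4.97 to 5.85 CPM in OVX, with 1 of 4 tested positive and 3 negative. Dentate granule cell markers summed to 453 to 678 CPM in OVX+RJ, beside 518 to 699 CPM in OVX, with 1 of 10 positive and 9 negative at a median of -0.19, 3 of them lower at that p. Of all tested genes, 4.05% were at an unadjusted p under 0.05 in edgeR, higher or lower. The part of these cell types in the values of the pump, cathepsin and Lamp genes was not tested.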

How the data were processed

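Hippocampal RNA of 6 mice was sequenced after poly(A) selection with a directional kit, per the labels' protocols. The build GRCm39 and the tools StringTie 2.2.1, HISAT2 2.2.1, fastp 0.23.4 and bcl2fastq 2.19 are named, without their roles, per the submitters' processing notes. Which tool made the counts, the annotation release, the strand setting and the handling of multiply matching reads were not given in the sources used here. The deposited table holds estimated counts per gene, and 51 of its 32067 rows have values that are not whole, which were rounded.

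Genes passing edgeR's filterByExpr (18629) were tested with edgeR 4.0.16 in R 4.3.3 (TMM scaling, glmQLFit and glmQLFTest on 2 groups of 3, Benjamini-Hochberg adjustment over all tested genes, threshold 0.05). The SE is the log2 fold change divided by the square root of F, and the 95% intervals come from the F distribution's degrees of freedom. The fitting steps were tested on simulated data. The common biological coefficient of variation was 0.134. CPM values were computed from the deposited counts over all rows, and sums and shares from those. Depth, in units of 1e+06 counts, was 34.7 to 58.2. Transcript lengths came from GENCODE M21 by symbol for 37 of 37 genes, on GRCm38, so no coordinates were carried over to the counts' build. Each length was that of a single protein-coding transcript, the longest of those annotated as principal or, without any, the longest.

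The members and all gene lists were chosen with earlier results of these data known. Values in every library were given for the 8 tested members with the lowest p, the most abundant member of each of 5 role classes in CPM, the paralog sets of subunits a, B, C, d, e, E and G (for d, Atp6v0d1 alone) and members under the filter, and, of each other list, up to 3 genes with the lowest p could be named. Alternatives were DESeq2 1.42.0, limma-voom (limma 3.58.1), other scalings and filters, robust estimation, a replicate block, and leaving out each library.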

Additional observations from a re-analysis of the deposited data

How the results depend on the processing

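None of the 32 genes passed an adjusted p of 0.05 in any of 14 alternatives, and the lowest adjusted p over all of them was 0.823. Over all tested genes the count past that threshold was 0 in edgeR, 12 in DESeq2, 3 with robust empirical Bayes and 0 to 8 with 1 library left out, the cause of which was not tested. With the replicate block, that is, the replicate number as a factor, it was 1 over all genes and 0 among the members. The correlations of same-numbered deviations from the group means were 0.0462, -0.00231 and 0.00316. Of 3 OVX+RJ libraries, 1 was closest to its own number. These values cannot settle whether mice of the same number were paired.

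With 1 library left out, the V0 median ran from -0.028 to 0.010 and the cathepsin median from -0.045 to 0.014. The members at an unadjusted p under 0.05 in edgeR then numbered 0 to 1. The share of all tested genes at that p, 4.05%, is given here only for the fit to all 6 libraries, so this count stands without its background. Of 445 values for single genes 29 changed sign, in 14 genes whose log2 fold change was at most 0.080 in size, and 18 genes kept theirs. The leave-one-out ranges of those 14 were -0.13 to 0.023 for Atp6v0a2, -0.080 to 0.0015 for Atp6v0b, -0.045 to 0.034 for Atp6v0c, -0.099 to 0.010 for Atp6v0e, -0.081 to 0.026 for Atp6v0e2, -0.052 to 0.015 for Atp6v1d, -0.033 to 0.055 for Atp6v1e1, -0.074 to 0.033 for Atp6v1g1, -0.048 to 0.073 for Atp6v1g2, -0.045 to 0.014 for Ctsb, -0.035 to 0.064 for Ctsd, -0.024 to 0.23 for Ctsh, -0.23 to 0.11 for Ctsk and -0.14 to 0.041 for Ctsz. Atp6v1e1 was also at -0.0032 with every gene tested and at -0.0052 without TMM. Atp6v1c2, Atp6v1b1 and Atp6v0a4 gave no value at a mean of at least 50 counts, because they were below it. At the 4 genes under 5 CPM the 95% interval reached past 1.5-fold. At Ctsk it did so only on the lower side, and at Atp6v1c2 only on the higher side.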
